A study of Homo sapiens with 4 samples.

Results

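Expression of 7 genes of early T cell development was followed on arrays of Jurkat, a leukaemia cell line of human T cells that is established in culture. They are the recombinase genes RAG1 and RAG2, the polymerase gene DNTT, the pre-T cell receptor gene PTCRA, the transcription factor gene FOXO1, the CD1 family gene CD1E and the coreceptor gene CD4. RAG1 and RAG2 were chosen by their lower signals with stimulation in both lines, so their stimulation values are a description and carry no test, and the other genes were added with results of the same arrays known. The platform annotation gives these 7 genes 16 probe sets of a single symbol, out of 54675 probe sets on the array, and 13 of the 16 reached the filter of a signal of 56.4 on at least 1 array. All 7 genes were thus among the 13717 genes compared.

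The study set the shIKKE line, which carries a short hairpin RNA against the kinase IKKε (gene IKBKE), against a control line, and each line was treated for 3 h with either PMA at 10 ng/ml plus ionomycin at 0.5 uM or with solvent. The titles name the control construct a vector and the design text a control hairpin. There were 4 arrays, 1 for each of the groups shIKKE stimulated, shIKKE solvent, control stimulated and control solvent, so a difference of one array from another cannot be set against any spread between replicates. The labels do not say whether the hairpin line is a clone or a pool, so effects of the hairpin and of the culture cannot be told apart. IKBKE, the targeted gene, read 248 in the shIKKE line against 520 in the control line with stimulation and 180 against 340 with solvent (log2 -1.03 and -0.87) by 1 probe set, and 280 against 311 and 287 against 218 (log2 -0.15 and 0.38) by another. The arrays' median signals were 69.1 and 59.8 in the stimulated shIKKE and control lines, against 49.7 and 48.8 in the solvent shIKKE and control lines. Control probe sets at the 5′ end of ACTB read 0.244 to 0.401 of those at its 3′ end. For GAPDH the same ratio was 1.04 to 1.17. The T cell label was checked with 11 T cell marker genes, all past the filter, whose summed signal lay between 70973 and 78375 on the 4 arrays. Sums of 6 myeloid and of 5 natural killer cell markers lay between 166 and 306 and between 326 and 445. Of 9 measured B lineage markers 6 passed the filter, and their sum of 2515 to 4106 came mostly from IGLL1, a surrogate light chain gene of precursor B cells, at 1795 to 3425. Also past the filter were CD79A (223 to 408), EBF1 (103 to 187), CD22 (63 to 103), CD79B and VPREB1. MS4A1, PAX5 and BLNK stayed below the filter.

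In developing lymphocytes RAG1 and RAG2 form the enzyme that cuts DNA at the signal sequences beside V, D and J gene segments, and end joining proteins seal the cuts. DNTT adds untemplated nucleotides at the joints. A thymocyte that has joined its T cell receptor beta gene displays the beta chain with the invariant chain encoded by PTCRA, goes on to express CD4, CD8 and CD1 molecules, and shuts off the recombinase when its finished receptor signals during selection. In mouse lymphocyte precursors the factor Foxo1 activates both Rag genes. PMA activates protein kinase C and ionomycin raises intracellular calcium, which together imitate receptor signalling.

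Both recombinase genes had lower signals with stimulation in both lines, and they reached almost the same stimulated level in each. RAG1, the catalytic subunit, read 87.1 stimulated against 642 with solvent in the shIKKE line. Control cells gave 80.5 stimulated against 1016 with solvent. On log2 of the signal plus 14.1, the scale of all differences below, these were -2.70 and -3.45, or 6.48-fold and 10.9-fold lower. RAG2, the subunit that reads histone H3 lysine methylation, read 61.6 stimulated against 284 with solvent in the shIKKE line (log2 -1.98, 3.94-fold). Control cells gave 58.5 stimulated against 563 with solvent (log2 -2.99, 7.96-fold). Both solvent arrays were above both stimulated arrays for each gene, an order favoured by the choice of the pair on this contrast. The stimulated signals of RAG2 and RAG1 were near the median signal of their arrays, and whether they were above background is not analysed here. In bulk RNA, fewer cells with a transcript and less of it per cell cannot be told apart. A second, dim RAG1 probe set never reached the filter (19 to 48.6) and gave log2 0.05 in the shIKKE line and -0.43 in the control line.

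The distance between the lines in these genes lay in the solvent arrays. RAG1 read 642 in the shIKKE line against 1016 in the control line with solvent (log2 -0.65), and 87.1 against 80.5 with stimulation (log2 0.10). RAG2 read 284 against 563 with solvent (log2 -0.95), and 61.6 against 58.5 with stimulation (log2 0.06). With all arrays at 1 median the stimulated differences turned to -0.07 for RAG1 and -0.11 for RAG2. The responses of the shIKKE line were smaller than those of the control line by 0.75 for RAG1 and 1.01 for RAG2 on the log2 scale, a difference that could not be tested with 1 array a group. The solvent array of the control line enters both the stimulation difference of that line and the solvent difference between the lines, with opposite sign.

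**Figure D1:**
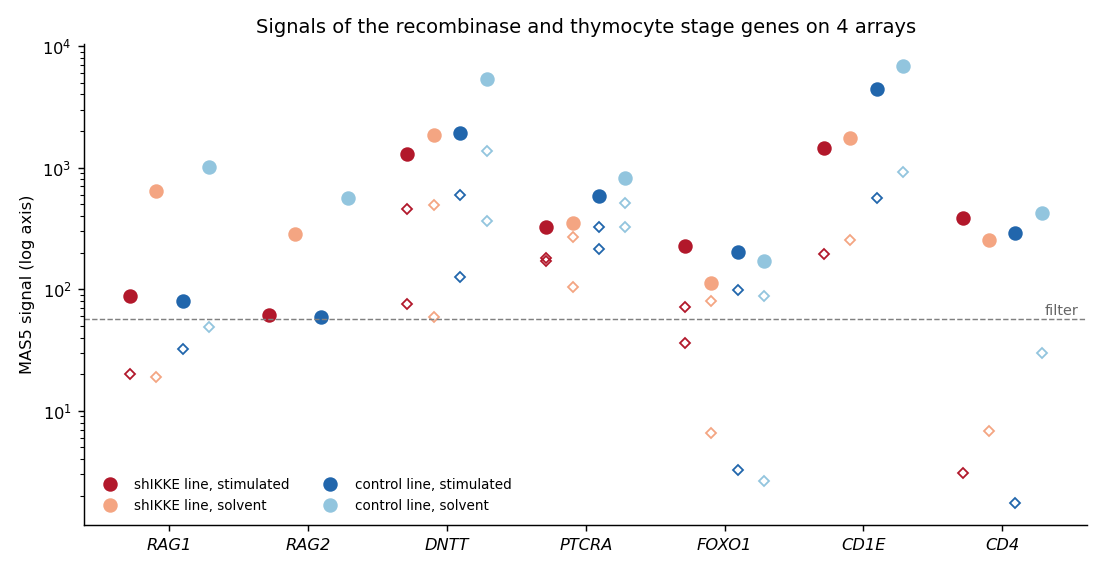
Signals of the 7 genes on the 4 arrays (log axis), in the order shIKKE stimulated, shIKKE solvent, control stimulated, control solvent within each gene. Filled circles are the probe set with the highest mean of a gene, open diamonds its other probe sets, and the dashed line is the filter at 56.4. RAG1 and RAG2 are high on the solvent arrays of both lines, while CD1E is high on both arrays of the control line.

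The genes with profiles most like the pair's over the 4 arrays were found by the root mean square difference of log2 values after each gene was centred on its own mean. GAB2, a docking protein of receptor signalling, was the closest of all genes to RAG2 (0.06) and to RAG1 (0.29). It read 33.9 stimulated against 189 with solvent in the shIKKE line, and 36 against 399 in the control line. RAG2 was the second closest to RAG1 (0.31), and RAG1 the fourth closest to RAG2. PFKFB4, a regulator of glycolysis, and FZD2, a Wnt receptor gene, were among the nearest 5 for both (0.26 and 0.31 to RAG2, 0.50 and 0.51 to RAG1). The interferon-induced gene IFIT1 completed the list for RAG1 (0.50) and NXF3, of the RNA export factor family, that for RAG2 (0.36). NXF3 passed the filter only through the solvent array of the control line, at 68.9. Stimulated, it read 4.15 in the shIKKE line and 6.27 in the control line. The stimulated signals of IFIT1 (35.9 and 55.7) and of GAB2 were also below the filter, where low signals spread widely. With 4 arrays these likenesses are descriptions of profile only.

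RAG1 and RAG2 are next to each other among the protein-coding genes of chromosome 11 in RefSeq's assembly GRCh38.p14, and their neighbours did not share the profile. TRAF6, the signalling adaptor gene before RAG1, read 299 stimulated against 391 with solvent in the shIKKE line (log2 -0.37). In the control line TRAF6 read 416 against 556 (log2 -0.40). IFTAP, after RAG2, read 249 against 251 in the shIKKE line (log2 -0.01) and 181 against 96 in the control line (log2 0.83). PRR5L, before TRAF6, was higher with stimulation in both lines (log2 2.20 and 1.21).

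Promoter sequence was available for 6 of the 7 genes, CD4 being the exception, and the windows of RAG1 and RAG2 are shown because this pair had the largest stimulation differences of the set. They are the 250 bases before the RefSeq gene start, 5′ to 3′ on the gene's strand (build GRCh38.p14); which start Jurkat cells use was not measured by the array. Capitals mark matches on either strand to 2 of the 5 motifs searched, the E-box CAGCTG and the GATA motif AGATAA.
RAG1, chr11:36510103-36510352, plus strand: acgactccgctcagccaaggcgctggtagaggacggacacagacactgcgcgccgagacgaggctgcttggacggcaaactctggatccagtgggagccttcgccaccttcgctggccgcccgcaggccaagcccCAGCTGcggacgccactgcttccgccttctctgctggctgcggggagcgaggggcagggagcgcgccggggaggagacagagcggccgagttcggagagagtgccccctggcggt
RAG2, chr11:36598237-36598486, minus strand: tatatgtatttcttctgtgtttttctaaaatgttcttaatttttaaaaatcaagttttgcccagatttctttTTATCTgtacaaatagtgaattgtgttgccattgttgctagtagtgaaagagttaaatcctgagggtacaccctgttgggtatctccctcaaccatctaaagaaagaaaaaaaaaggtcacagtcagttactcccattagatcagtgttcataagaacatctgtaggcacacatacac
The windows differ in composition, with 70.0% G and C for RAG1 (percentile 80.1 of 27305 RefSeq promoters) and 34.0% for RAG2 (percentile 4.6). The RefSeq start of RAG1 may not be the promoter used in lymphocytes, so its composition and motifs describe this window only. RAG1 has 1 E-box, which 13.8% of all promoters hold, and RAG2 has 1 GATA match, which 9.37% hold. Neither window holds the forkhead motif TGTTTAC (2.98% of all promoters), the AP-1 motif TGACTCA (4.16%) or the NFAT core GGAAA (56%).

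Across the set, 2 of 7 genes (RAG1 and RAG2) were lower with stimulation by 2-fold or more in the shIKKE line, where 2.68% of all genes were, and 3 of 7 (with DNTT) in the control line, where 6.44% were. In both lines together it was RAG1 and RAG2, against 0.773% of all genes; the choice of the pair used this contrast. None of the 7 was at least 2-fold higher, against 10.3% of all genes in the shIKKE line and 7.57% in the control line. The median of the 7 was log2 -0.26 in the shIKKE line and -0.64 in the control line, beside -0.01 and -0.07 over all genes. The share of higher among all called genes depended on scaling. It was 79.4% in the shIKKE line and 54.0% in the control line as deposited, 59.5% and 42.7% after quantile normalization, 62.1% and 45.0% after cyclic loess, and 42.7% and 30.6% with all arrays at 1 median.

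**Figure D2:**
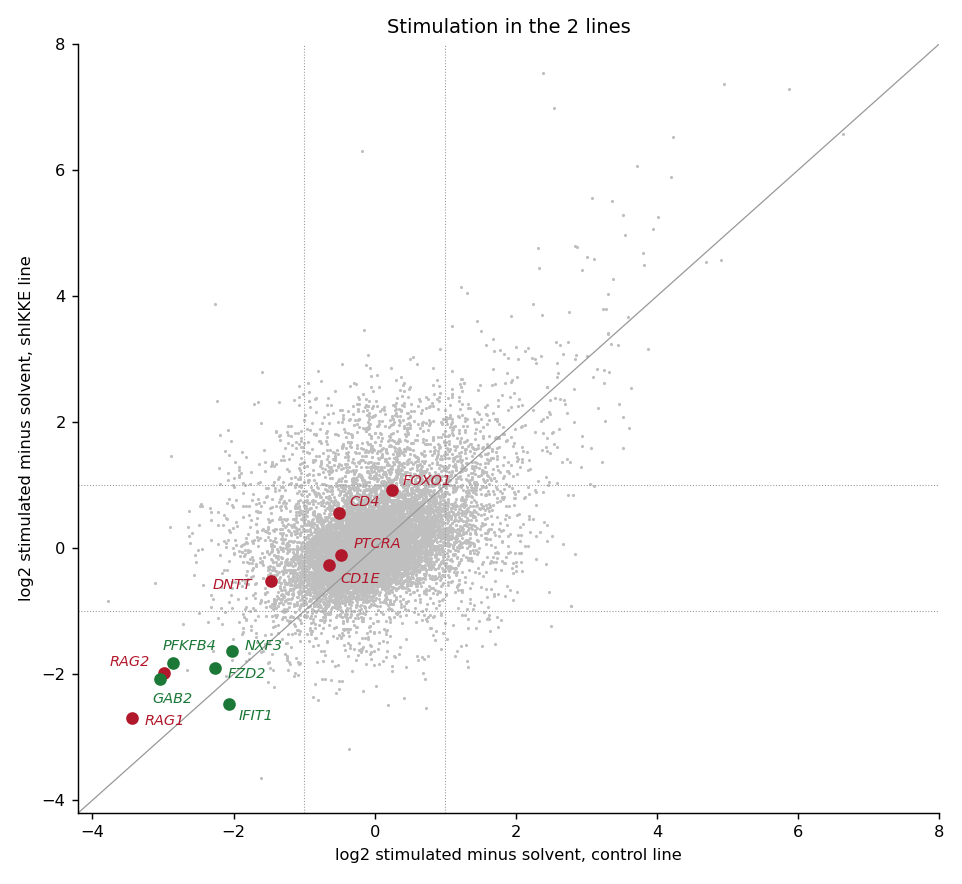
Log2 difference of stimulated minus solvent signal in the shIKKE line (vertical) against that in the control line (horizontal) for 13717 genes in grey, with the 7 genes in red and the genes most like RAG1 or RAG2 in green. Dotted lines mark 2-fold and the diagonal marks equal differences. RAG1 (-2.70 and -3.45) and RAG2 (-1.98 and -2.99) lie at the lower left with GAB2, apart from the other members.

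DNTT, which encodes terminal deoxynucleotidyl transferase, was among the brightest of the set and highest in the control line with solvent. Its brightest probe set read 1285 stimulated against 1860 with solvent in the shIKKE line (log2 -0.53). The control line gave 1919 against 5367 (log2 -1.48, 2.78-fold). The solvent array of the control line thus stood above the other 3. Both dimmer probe sets were lower with stimulation in the control line (log2 -1.20 and -1.44). In the shIKKE line they gave log2 -0.10 and 0.28, so their direction there differed between probe sets. Between the lines, all 3 probe sets were lower in the shIKKE line, by log2 -1.52, -1.46 and -2.37 with solvent and by -0.57, -0.36 and -0.65 with stimulation.

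PTCRA, the invariant chain of the pre-T cell receptor, was lower in the shIKKE line under both treatments. With stimulation its brightest probe set read 322 in the shIKKE line against 583 in the control line (log2 -0.83). With solvent it read 349 against 817 (log2 -1.19, 2.29-fold). Both arrays of the shIKKE line were below both of the control line, an order whose share among all genes was not counted. The other 2 probe sets gave log2 -0.82 and -0.32 with stimulation and -0.91 and -1.51 with solvent, the same direction throughout. Of the 3 probe sets, 2 carry the suffix that the array design gives to probes which may also bind other transcripts. Stimulation itself gave log2 -0.11 in the shIKKE line and -0.48 in the control line by the brightest probe set. The dimmest gave 0.62 and -0.56.

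The upstream windows of these genes are shown since both were lower in the shIKKE line with solvent. That of CD1E, which was also lower, is not shown. Capitals again mark the E-box CAGCTG and the GATA motif AGATAA on either strand.
DNTT, chr10:96304184-96304433, plus strand: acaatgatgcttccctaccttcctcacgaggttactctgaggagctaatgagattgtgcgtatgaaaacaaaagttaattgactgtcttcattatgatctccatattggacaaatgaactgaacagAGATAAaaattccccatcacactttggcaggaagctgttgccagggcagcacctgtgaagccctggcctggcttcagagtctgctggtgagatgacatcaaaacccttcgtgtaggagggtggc
PTCRA, chr6:42915803-42916052, plus strand: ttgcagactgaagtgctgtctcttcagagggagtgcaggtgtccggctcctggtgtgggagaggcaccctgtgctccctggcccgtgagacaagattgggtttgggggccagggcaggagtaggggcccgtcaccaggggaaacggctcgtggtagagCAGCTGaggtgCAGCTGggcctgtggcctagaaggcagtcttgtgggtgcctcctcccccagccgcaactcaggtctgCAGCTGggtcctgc
PTCRA holds 3 E-boxes of this form, starting 92, 81 and 14 bases before the gene start, a motif bound by E proteins such as those encoded by TCF3 and TCF12. DNTT holds none and has 1 GATA match. The PTCRA window also has 1 match, not marked, to the NFAT core GGAAA, which 56% of all promoters hold. DNTT has no NFAT core match.

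FOXO1 was dim and its probe sets did not move alike. Its brightest probe set read 225 stimulated against 112 with solvent in the shIKKE line (log2 0.92). The control line gave 204 against 171 (log2 0.24). A second read 71 against 79.7 in the shIKKE line (log2 -0.14) and 97.8 against 87.5 in the control line (log2 0.14), and another was below the filter throughout. FOXO3, its relative, read 3306 stimulated against 2452 with solvent in the shIKKE line, and 3177 against 2278 in the control line.

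CD1E encodes an intracellular CD1 protein that helps load lipid antigens, and by the brightest probe set of each gene it had the largest difference between the lines of the 7 genes. With stimulation it read 1451 in the shIKKE line against 4396 in the control line (log2 -1.59, 3.01-fold). With solvent it read 1742 against 6870 (log2 -1.97, 3.92-fold). The lines did not overlap, though how many of all genes were so ordered was not counted. A dimmer probe set gave log2 -1.47 with stimulation and -1.79 with solvent. Stimulated and solvent arrays differed less, by log2 -0.26 in the shIKKE line and -0.64 in the control line.

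The other CD1 genes, which stand directly before CD1E in RefSeq's gene order on chromosome 1, were compared after their values were seen. CD1A, CD1B and CD1C encode the cell surface molecules that present lipids to T cells. With stimulation CD1A read 941 in the shIKKE line against 2616 in the control line (log2 -1.46), CD1B 839 against 2035 (log2 -1.26) and CD1C 1026 against 2933 (log2 -1.50). With solvent their log2 differences were -1.29, -1.50 and -1.23. CD1D, which presents lipids to natural killer T cells, differed less between the lines (log2 -0.79 with stimulation and -0.53 with solvent). It was instead lower with stimulation, at 558 against 1610 with solvent in the shIKKE line (log2 -1.51) and 972 against 2331 in the control line (log2 -1.25). Line differences of the 5 genes kept their sign under each alternative scaling.

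CD4, the coreceptor of helper T cells, had stimulation differences of opposite sign in the lines. It read 382 stimulated against 255 with solvent in the shIKKE line (log2 0.56). In the control line it read 292 against 421 (log2 -0.51). These are within 2-fold, and against the solvent array of the other line both signs turned (log2 -0.14 and 0.18). A second probe set was below the filter on all arrays.

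Between the lines, 1 of 7 genes (CD1E) was lower in shIKKE cells by 2-fold or more with stimulation, against 2.37% of all genes, and 3 of 7 (CD1E, DNTT and PTCRA) with solvent, against 6.68%. CD1E was lower in both treatments, as 0.612% of all genes were. None was at least 2-fold higher, where 5.99% of all genes were with stimulation and 4.34% with solvent. The median of the 7 was log2 0.06 with stimulation and -0.95 with solvent, beside 0.03 and -0.05 over all genes. Of all called genes between the stimulated lines, 71.7% were higher as deposited, and 58.2% with all arrays at 1 median. Averaged over the treatments in limma's additive model, CD1E differed by log2 -1.78 ± 0.26 (SE; 4 arrays; Benjamini-Hochberg adjusted p = 0.564) and was lower in both treatments. PTCRA differed by -1.01 ± 0.26 (limma adjusted p = 0.591) and DNTT by -1.05 ± 0.33 (limma adjusted p = 0.624). For RAG1, RAG2, FOXO1 and CD4 the average differences were -0.28, -0.44, -0.21 and -0.16 (limma adjusted p 0.832 to 0.949). None of the 7 passed, and limma called 0 of 13717 genes (0%), with 1000 at an unadjusted p under 0.05. With the error variance following the level it called 232 genes, CD1E (adjusted p = 1.04e-12), DNTT (0.000705) and PTCRA (0.0205) among them. It borrows the error of genes at a like level. In both fits the gap between the responses of the lines supplies the 1 residual degree of freedom. The p-values of both fits thus do not measure a spread between replicate cultures. CD1E, DNTT and PTCRA were also added with results of the same arrays known, so their p-values are no independent support.

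**Figure D3:**
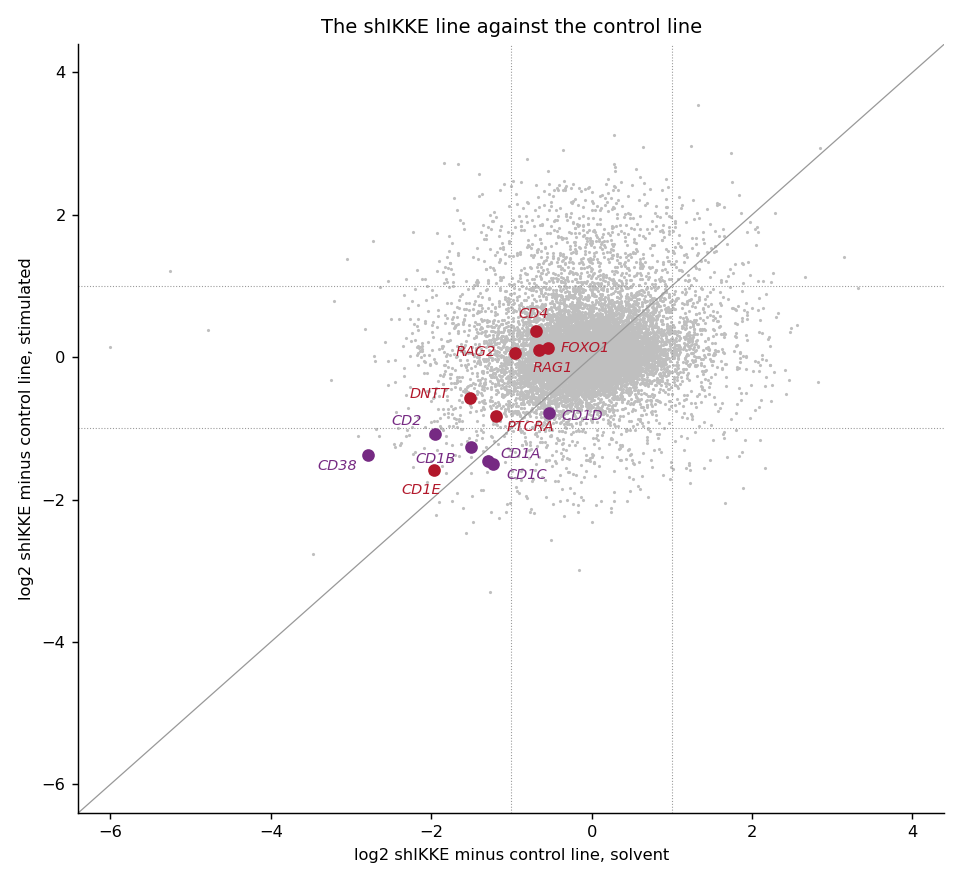
Log2 difference of the shIKKE line minus the control line with stimulation (vertical) against that with solvent (horizontal) for 13717 genes in grey, with the 7 genes in red and other CD1 genes, CD2 and CD38 in purple. Dotted lines mark 2-fold. CD1E, CD1A, CD1B, CD1C, CD2 and CD38 lie below -1 on both axes, while RAG1 and RAG2 lie near 0 with stimulation.

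Of 24 listed genes of V(D)J recombination and end joining, 22 passed the filter, and those lower by 2-fold with stimulation were RAG1 and RAG2 in the shIKKE line and RAG1, RAG2 and DNTT in the control line; none was higher. Over all genes 2.68% were lower and 10.3% higher in the shIKKE line, and 6.44% and 7.57% in the control line. The other 19 of the list stayed within 2-fold in both lines, as most of all genes did. The list's median was log2 -0.20 in the shIKKE line and -0.02 in the control line. DCLRE1C, the Artemis nuclease that opens hairpin ends, by a probe set that may also bind other transcripts, read 1859 stimulated against 1171 with solvent in the shIKKE line (log2 0.66), and 1951 against 1427 in the control line (log2 0.45). ATM, the kinase that senses the breaks, differed by log2 0.81 and 0.62. DCAF1, a ubiquitin ligase adaptor that binds RAG1, differed by 0.05 and 0.98. Between the lines none of the 22 was 2-fold different with stimulation, and DNTT alone was with solvent. Over all genes 2.37% were lower and 5.99% higher with stimulation, and 6.68% and 4.34% with solvent. TP53BP1, a break repair protein gene, differed between the lines by log2 0.51 and 0.52.

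Of 31 measured transcription factor genes of thymocyte stages (39 listed), 6 were at least 2-fold higher and 2 lower with stimulation in the shIKKE line, and 5 higher and 4 lower in the control line. Over all genes 10.3% were higher and 2.68% lower in the shIKKE line, and 7.57% and 6.44% in the control line. The medians were log2 0.05 and -0.09. The 5 that were higher in both lines were ID1, ID2, GATA3, RUNX3 and BCL6. ID1 and ID2 encode partners that keep E proteins off DNA. ID2 read 5520 stimulated against 1354 with solvent in the shIKKE line (log2 2.02), and 5647 against 2798 in the control line (log2 1.01). ID1 differed by log2 1.57 and 1.06 and ID3, also of this family, by 1.15 and 0.63. With all arrays at 1 median the control line values of ID1 and ID2 were 0.83 and 0.78. GATA3, the T lineage factor, read 15784 stimulated against 5528 with solvent in the shIKKE line (log2 1.51), and 11648 against 4398 in the control line (log2 1.40). RUNX3, a factor of the CD8 lineage, differed by log2 2.27 and 2.08, and the repressor gene BCL6 by 2.58 and 1.66. Both dimmer probe sets of BCL6 stayed within 2-fold in the shIKKE line (log2 0.58 and 0.71).

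By the brightest probe set of each, E protein genes themselves were within 2-fold. TCF3 gave log2 -0.19 and 0.20 and TCF12 -0.05 and -0.33 in the shIKKE and control lines. Taking the median of the probe sets, the control line gave up to 1.04 for TCF3 and 1.01 for TCF12. BCL11B, a factor of T cell commitment, was lower with stimulation in the shIKKE line (1629 against 6891, log2 -2.07), and read 2665 against 4464 in the control line (log2 -0.74). MYB was the other factor lower in the shIKKE line (log2 -1.16). In the control line IKZF2 (log2 -1.84), THEMIS (-1.61), GFI1 (-1.28) and ERG (-1.21) were lower. These were named after their values were seen, and IKZF2 gave up to 0.87 when the median of its probe sets was taken. ERG passed the filter only through the solvent array of the control line, at 82.3. With solvent, GFI1, a repressor of early T cell stages, read 465 in the shIKKE line against 1586 in the control line (log2 -1.74), and THEMIS, a thymocyte selection gene, 2762 against 5785 (log2 -1.06). LMO2 was higher in the shIKKE line (log2 2.21 with stimulation and 1.27 with solvent) by a dim probe set of at most 69.7, and a second probe set gave -0.15 and -1.05.

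**Figure D4:**
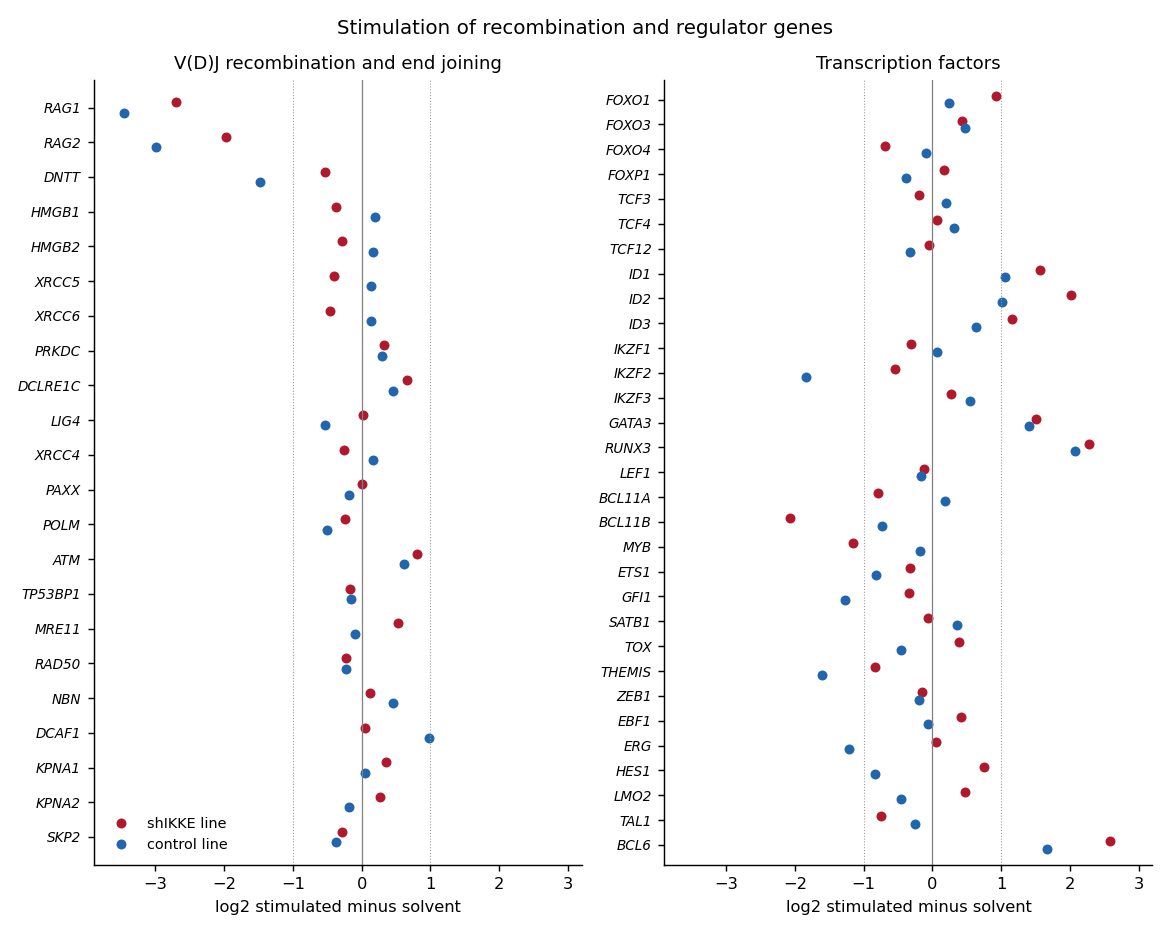
Log2 difference of stimulated minus solvent signal for 22 genes of V(D)J recombination and end joining (left) and 31 transcription factor genes (right), with the shIKKE line in red above the control line in blue for each gene. Dotted lines mark 2-fold. RAG1 and RAG2 lie left of -1 in both lines while the joining genes cluster about 0, and ID1, ID2, GATA3, RUNX3 and BCL6 lie right of 1.

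Among 34 measured thymocyte surface and pre-T cell receptor genes (37 listed), 6 were lower in shIKKE cells by 2-fold or more in both treatments, namely CD1A, CD1B, CD1C, CD1E, CD2 and CD38, and CCR4 was higher. Over all genes 0.612% were lower in both treatments. CD38 and CCR4 were dim and passed the filter only in the line where they were high. CD38 read 15.2 and 5.97 in the shIKKE line, against 61.9 and 125 in the control line, with stimulation and with solvent in that order. CCR4 likewise read 59.3 and 42 in the shIKKE line, against 6.05 and 6.15 in the control line. By treatment, 7 were lower and 1 higher with stimulation, and 10 lower and 2 higher with solvent, with medians of log2 -0.11 and -0.43. Over all genes 2.37% were lower and 5.99% higher with stimulation, and 6.68% and 4.34% with solvent. CD2, an adhesion receptor of T cells, read 353 in the shIKKE line against 760 in the control line with stimulation (log2 -1.08), and 500 against 1976 with solvent (log2 -1.95). The T cell receptor subunit gene CD3D read 26370 against 28570 with stimulation and 28206 against 26586 with solvent, so the lower levels did not extend to it. This bright gene does not stand for the rest of the list. NOTCH3 (log2 -1.23 with stimulation and -0.86 with solvent) and CD5 (-0.63 and -0.86) were lower in the shIKKE line, and CD3G (0.21 and 0.31) was not. With stimulation, CD1D and the lymph node homing receptor gene CCR7 were lower in both lines, and CD69, CD44 and IL2RA, genes of activated T cells, were higher. CD44 (67.8 and 56.6 stimulated in the shIKKE and control lines) and IL2RA (109 and 95.6) passed the filter only through the stimulated arrays. Under the alternative scalings neither reached 2-fold in the shIKKE line (log2 0.80 to 0.85 for CD44 and 0.64 to 0.69 for IL2RA). The other CD44 probe sets never reached the filter and differed in sign. A second IL2RA probe set gave log2 2.26 in the shIKKE line and 0.54 in the control line. CCR7 differed by log2 -1.03 in the shIKKE line and -2.49 in the control line. It passed the filter only through the solvent array of the control line, at 92, and read 16.1 and 47.5 in the shIKKE line. Under the alternatives its shIKKE difference went as far as -0.56. CXCR4, a chemokine receptor gene of thymocytes, read 8050 stimulated against 15428 with solvent in the shIKKE line (log2 -0.94), and 6678 against 19526 in the control line (log2 -1.55). Its other probe sets were lower by more in the shIKKE line (log2 -2.26 and -2.20) and gave -1.90 and -1.86 in the control line.

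Genes known as targets of FOXO factors did not all differ in one direction. Of 21 measured (24 listed), 6 were at least 2-fold higher and 1 lower with stimulation in the shIKKE line, and 4 higher and 3 lower in the control line, with medians of log2 0.49 and -0.30. The all-gene shares were again 10.3% and 2.68% in the shIKKE line and 7.57% and 6.44% in the control line. IL7R, the interleukin 7 receptor gene, read 674 stimulated against 1226 with solvent in the shIKKE line (log2 -0.85), and 674 against 2003 in the control line (log2 -1.55). By this probe set the levels had the pattern seen for RAG1 and RAG2, with the lines apart with solvent and alike with stimulation. A second IL7R probe set showed it less, at log2 -0.24 with stimulation and -0.41 with solvent between the lines. It too was lower with stimulation (log2 -0.98 in the shIKKE line and -1.14 in the control line). In contrast GADD45A, a stress response gene, was higher (log2 2.61 and 1.70), as was the insulin signalling adaptor gene IRS2 (2.27 and 1.59). A second IRS2 probe set was higher within 2-fold in both lines (log2 0.66 and 0.74). TXNIP was lower by its brightest probe set (log2 -0.63 and -0.86) and higher by the median of its probe sets. Between the lines, none of the 21 was 2-fold lower with stimulation and 6 were with solvent (medians log2 0.29 and -0.67), where 2.37% and 6.68% of all genes were. Taking the median over all probe sets, BTG1 was the 1 of those 6 still 2-fold lower, and the list's solvent median was -0.03. RBL2, a retinoblastoma family gene, was lower in both treatments, within 2-fold (log2 -0.80 with stimulation and -0.83 with solvent).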

How the data were processed

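Total RNA of 4 Jurkat samples was hybridised to 1 single-colour array each, after labelling with biotin per the labels' protocols. The authors deposited an intensity for each probe set on each array, from MAS5 per the submitters' processing notes. Its version and settings are not given in the sources used. The 2% trimmed mean was 500.1 on all 4 arrays. MAS5 spreads low signals widely. The number of arrays limits the precision.

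Values were used as log2 of signal plus 14.1 (the 25th percentile of all signals), for genes with a probe set reaching 56.4 (the median) on 1 array; the probe set with the highest mean log2 stood for a gene. Names came from the platform annotation (41091 probe sets with 1 symbol, 1801 with several, 11721 with none; 62 controls left out), of which 41037 matched RefSeq by gene ID, with 0 replaced. Promoters are RefSeq's (GRCh38.p14). A difference of single arrays has no test and was called at 2-fold. The average line difference was fitted with limma 3.58.1 in R 4.3.3 (additive with stimulation, lmFit and eBayes, two-sided, Benjamini-Hochberg over 13717 genes at 0.05), and tested on simulated data. Python 3.11.15, pandas 2.3.3, numpy 2.4.6 and matplotlib 3.10.9 did the rest. The table had 0 columns left out.

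Members and lists were chosen with earlier results of these data known. From each list, up to 6 genes with the largest mean stimulation difference and up to 4 with the largest mean line difference were to be named, besides every member and the 5 nearest to RAG1 and to RAG2; any others were named after their values were seen. Listed genes that did not reach the filter are not analysed here. Alternatives were the pseudocount, the scaling, the filter, the probe set choice, the baseline array and limma's trend.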

Additional observations from a re-analysis of the deposited data

Results flagged for a closer look

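Of 118 genes of the lists past the filter, 45 had stimulation differences of opposite sign in the lines, which was not tested with 1 array a group. The share of all genes with such signs was not counted, so the 45 cannot be called many or few. The 3 given here are the member with such signs and the genes named by rule from the lists that also reached 2-fold in 1 line. CD4 had log2 0.56 in the shIKKE line and -0.51 in the control line, and both signs turned against the other line's solvent array. BTG1, an antiproliferative gene counted with the FOXO targets, had 1.37 and -0.65, and its other probe sets gave 1.01 and 0.64 in the shIKKE line and -0.48 and -1.38 in the control line. SESN3, of the stress-responsive sestrin family, had 1.39 and -0.87 by a probe set whose signals were at most 142, and both signs turned with another choice of probe sets. For all 3, the solvent array of the control line was above that of the shIKKE line.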

How the results depend on the processing

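The stimulation differences of RAG1 and RAG2 stayed past 2-fold. Over 7 alternatives RAG1 ranged from -3.08 to -1.32 in the shIKKE line and from -3.68 to -1.94 in the control line, and RAG2 from -2.36 to -1.58 and from -3.25 to -2.50; the smallest RAG1 values average in its dim probe set. Their differences between the stimulated lines, close to 0, ranged from -0.17 to 0.11 and from -0.11 to 0.07 and changed sign. With all arrays at 1 median, the median of all genes shifted by -0.38 and -0.23 for stimulation (shIKKE, control) and by -0.17 between the stimulated lines. The median of PTCRA's probe sets gave -0.91 with solvent between the lines. The average line difference passed for CD1E with a pseudocount of 50 (-1.76, adjusted p = 0.0438) and, with limma's trend, for CD1E (-1.78), DNTT (-1.05) and PTCRA (-1.01); over the 8 alternatives adjusted p ran up to 0.694, 0.779 and 0.764. Against the other line's solvent array, DNTT read -2.05 in shIKKE cells and turned to 0.04 in control cells, while CD1E read -2.23 in shIKKE cells and 1.33 in control cells, PTCRA -1.31 and 0.72, and CD4 -0.14 and 0.18; these include the difference between the lines. The causes were not tested. Counts of all genes at least 2-fold changed moved more. With a pseudocount of 50, lower and higher counts were 151 and 767 (stimulation, shIKKE), 483 and 593 (control), 126 and 328 (lines, stimulated), 465 and 245 (lines, solvent), 47 were lower in both lines and 36 in both treatments, and 11 passed in limma. With no filter they were 796 and 2200, 1380 and 1648, 704 and 1560, 1458 and 1235, and 128 lower in both treatments. With 1 median they were 1108 and 824 in the shIKKE line, 1550 and 685 in the control line, and 351 lower in both. Lower in the shIKKE line were 690 after quantile normalization and 615 after cyclic loess, and lower in both lines 213 and 192. A pseudocount of 1 gave 164 lower in both lines and 138 in both treatments. limma's trend called 232. All 112 list medians stayed on their side of 2-fold, though that of the FOXO targets between the solvent lines went to -0.03 with the median of probe sets. Leaving out an array would empty a group. No paired analysis was possible because each group has 1 array and the labels give no replicate numbers.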
